A study of Homo sapiens with 8 samples.

Results

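The H3K4me3 ChIP sequencing libraries of HCT8 cells exposed to V. cholerae MVs or to E. coli MVs were compared with each other. They are 2 of the 8 samples of the series, and their peak lists hold 60813 of the 324674 peaks in the 6 lists of the series. The V. cholerae MV list has 29347 peaks and the E. coli MV list has 31466. They were chosen by their labels, C6706 for V. cholerae and MC1061 for E. coli, and are of similar depth and share of tags in peaks. HCT8 is a human ileocecal colorectal adenocarcinoma line. MVs are membrane vesicles that bacteria shed from their surface. C6706 is a pathogenic V. cholerae strain, and MC1061 is a laboratory E. coli K-12 strain that does not cause disease. Both cultures received MVs, in the same amount of protein, for 5 h. Both lists were called against the same kind of input library, and the mock-treated culture got buffer in place of MVs. Each treatment has 1 library, so the differences have no replicate check and are given without tests or p-values.

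H3K4me3 is histone H3 trimethylated at lysine 4. It sits on the nucleosomes flanking the transcription start site (TSS) of active genes, and complexes of the SET1 and MLL families write it, recruited in part by CpG islands through CXXC domain proteins. Strong and wide H3K4me3 marks housekeeping genes and genes of cell identity, whereas weak and narrow H3K4me3 is also found at enhancers and other sites far from a TSS.

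The libraries held 13011839 tags with V. cholerae MVs and 10528314 with E. coli MVs. Of these tags, 56.1% and 53.9% lay in peaks, with exact (Clopper-Pearson) 95% binomial intervals 0.0539 and 0.0602 percentage points wide. The estimated fragment length in the headers was 164 bp with V. cholerae MVs and 152 bp with E. coli MVs. All 12 epithelial markers, among them CDX2, CDH1 and EPCAM, had a peak in both lists. Of 12 blood cell markers only CD8A had one, and of 15 markers of other tissues COL1A1 and RBFOX3 had one. The mock list rests on only 3463875 tags, so that weak peaks can be missing from it. Values are given as the normalized tag count, the tags of a peak per 10000000 tags of its library. Ratios are V. cholerae MVs over E. coli MVs on the log2 scale, with exact 95% intervals that cover counting error only. A gene or region is called higher or lower where its ratio is at least 1.5-fold.

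Sequences are shown first because the ratio between the libraries moved with base composition. The windows below hold 200 bases just upstream of the canonical TSS in GRCh37, 5′ to 3′ on the strand of the gene, with CG dinucleotides in capitals. None overlaps an annotated exon. KLF2 (chr19:16435437-16435636, plus strand), RGCC (chr13:42031486-42031685, plus strand) and CLDN3 (chr7:73184601-73184800, minus strand) had more H3K4me3 with V. cholerae MVs. ANXA1 (chr9:75766581-75766780, plus strand) and the internal TSS of TNRC6B (chr22:40573729-40573928, plus strand) had less. They were chosen after their values were seen.
KLF2: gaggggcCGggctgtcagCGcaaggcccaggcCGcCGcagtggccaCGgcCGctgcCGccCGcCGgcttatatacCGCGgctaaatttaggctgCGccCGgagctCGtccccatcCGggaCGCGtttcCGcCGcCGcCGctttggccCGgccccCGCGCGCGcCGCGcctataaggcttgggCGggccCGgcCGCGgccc
RGCC: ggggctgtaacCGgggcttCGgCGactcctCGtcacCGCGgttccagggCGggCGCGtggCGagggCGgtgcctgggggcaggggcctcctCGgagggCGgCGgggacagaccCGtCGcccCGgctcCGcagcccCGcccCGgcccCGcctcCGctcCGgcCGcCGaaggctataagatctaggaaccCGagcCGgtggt
CLDN3: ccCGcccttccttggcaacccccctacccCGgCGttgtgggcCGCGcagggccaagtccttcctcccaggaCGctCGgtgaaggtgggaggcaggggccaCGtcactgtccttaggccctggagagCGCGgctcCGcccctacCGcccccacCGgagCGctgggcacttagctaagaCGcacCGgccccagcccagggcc
ANXA1: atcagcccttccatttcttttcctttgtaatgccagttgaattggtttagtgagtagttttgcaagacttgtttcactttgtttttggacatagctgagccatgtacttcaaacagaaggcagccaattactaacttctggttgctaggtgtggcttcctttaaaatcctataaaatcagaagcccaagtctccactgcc
TNRC6B: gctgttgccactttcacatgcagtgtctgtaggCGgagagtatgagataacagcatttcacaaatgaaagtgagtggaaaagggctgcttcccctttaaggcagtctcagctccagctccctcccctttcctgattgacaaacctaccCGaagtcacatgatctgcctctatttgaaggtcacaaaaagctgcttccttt

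The first 3 windows have a GC content of 77%, 77% and 72.5% and hold 32, 27 and 16 CG dinucleotides. The last 2 have 40.5% and 47.5% and hold 0 and 2. Motifs were searched on both strands of the same window of all genes with a peak in both lists, and a match is a description of the letters only. The GC box GGGCGG was present upstream of 69.5% of the 12735 genes searched, 70.6% of those called higher with V. cholerae MVs and 35.4% of those called lower. The TATA box TATAAA was present upstream of 3.98%, 4.61% and 15.9% of these genes. The AP-1 site TGANTCA, which FOS and JUN dimers bind, was found in 2.61%, 2.74% and 9.73%, and the ETS site CCGGAAG in 15.4%, 5.49% and 5.31%. The genes called lower therefore had fewer GC boxes and more TATA boxes and AP-1 sites in this window than all genes, while both called groups had fewer ETS sites. Only 113 genes called lower were searched, with the TATA box at 18 and the AP-1 site at 11. Their windows had a GC content of 54%, against 68% for all genes, and its part in these shares was not tested. Median CG dinucleotides per window were 19 for all genes, 18 for genes called higher and 4 for genes called lower.

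When peaks overlapping by 1 bp or more were joined, 36797 regions resulted. Of these, 23340 were called in both lists, 5637 in the V. cholerae MV list alone and 7820 in the E. coli MV list alone. The shared regions hold 80.8% (95% interval 80.3 to 81.2) of the V. cholerae MV peaks and 75.1% (74.7 to 75.6) of the E. coli MV peaks. They hold 98.7% and 97.6% of the tags in peaks, so the regions in 1 list only are many but weak. A shared region was most often 1 peak against 1 peak, at 22703 regions. In 290 regions a single V. cholerae MV peak spanned several E. coli MV peaks, and in 334 regions the reverse held.

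Regions were divided by whether they lie within 1000 bp of a TSS of a protein-coding gene. Over 12586 shared promoter regions, the median normalized tag count was 391.2 with V. cholerae MVs and 354.3 with E. coli MVs. The 10754 shared distal regions had medians of 24.6 and 29.4. Promoter regions were therefore over 10 times as strong as distal ones in both libraries. The median width was 2445 bp with V. cholerae MVs and 2411 bp with E. coli MVs at promoters, and 900.5 bp and 952 bp at distal regions. Per 1000 bp of called peak, promoters had 154.9 and 139.3 tags and distal regions 26.5 and 29.6.

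**Figure D1:**
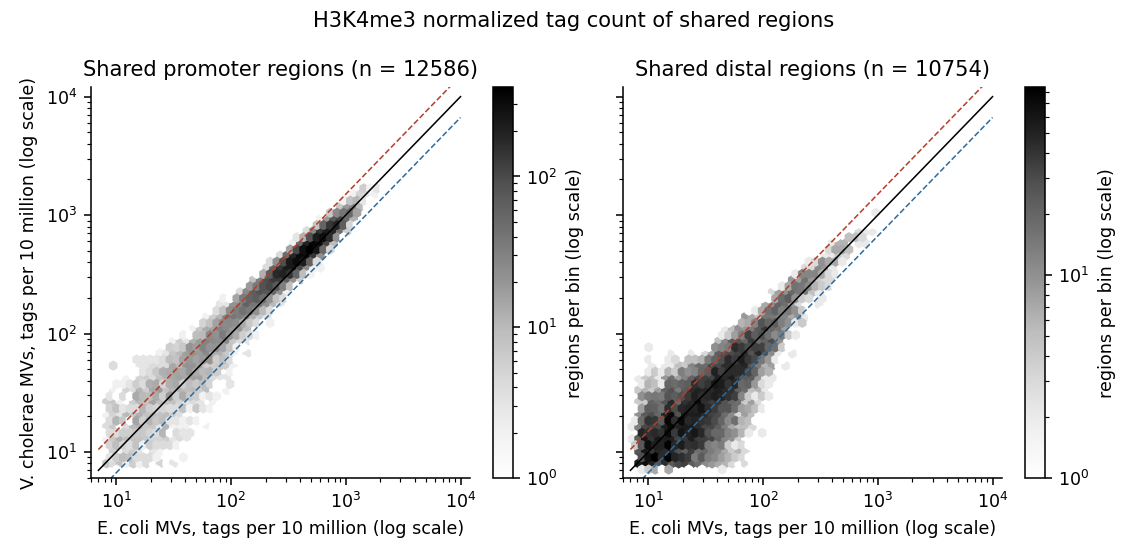
Normalized H3K4me3 tag count (tags per 10000000, log scales) of each shared region with E. coli MVs (x axis) and V. cholerae MVs (y axis), for 12586 promoter regions (left) and 10754 distal regions (right), shaded by the number of regions per bin. The solid line marks equal values and the dashed lines 1.5-fold, and the spread around equal values is widest at low counts.

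Over the shared regions the median log2 ratio was 0.058 (interval of the median from ranked regions 0.053 to 0.064), with quartiles of −0.24 and 0.31. At promoters it was 0.12 (0.12 to 0.13) and at distal regions −0.14 (−0.16 to −0.12). Promoters thus had slightly more tags with V. cholerae MVs and distal regions slightly fewer. The median log2 ratio of width was 0.013 at promoters and 0 at distal regions, and per 1000 bp the medians were 0.10 and −0.11. Of all shared regions, 10.3% were at least 1.5-fold higher with V. cholerae MVs and 13.9% at least 1.5-fold lower. At promoters 989 regions (7.86%) were higher and 361 (2.87%) lower, and at distal regions 1422 (13.2%) were higher and 2876 (26.7%) lower. With library size taken as the tags inside peaks, every log2 ratio is lower by the same amount (−0.059), and the median log2 ratio of shared regions is −0.000310.

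The difference between promoters and distal regions went with GC content. Shared regions were divided into 5 equal groups of GC content. In the lowest group, up to 43.1%, the median log2 ratio was −0.31 at 708 promoter regions and −0.52 at 3960 distal regions. In the middle group it was 0.035 and 0.041. In the highest group, from 59.3%, it was 0.36 at 3542 promoter regions and 0.43 at 1126 distal regions. The order of the groups was therefore the same at both kinds of region. Width followed it too, since the median width with V. cholerae and E. coli MVs was 806 and 1071 bp in the lowest group and 1941.5 and 1779.5 bp in the highest. Centred on the median of regions in the same of 20 GC bins, an alternative chosen after seeing the data, promoters had a median of 0.0034 and distal regions −0.014. The libraries also differed in fragment length, at 164 and 152 bp, and with 1 library each a difference between libraries and one between treatments cannot be told apart.

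Chromosomes differed in GC content, in the share of promoter regions and in the ratio. Chromosome 13 had the lowest median log2 ratio of shared regions, −0.063 over 538 regions with a median GC content of 47.0%, and 39.96% of its regions were promoter regions. Chromosome 19, which is rich in genes and in G and C, had the highest, 0.22 over 1234 regions with a median GC content of 57.5%, and 72.2% were promoter regions. Chromosomes 22, 17 and 16 came next, at 0.20, 0.16 and 0.15, and chromosomes 4 and 18 lay at −0.036 and −0.017. The order was not that of GC content throughout, since chromosome 4 had the lowest, 46.1%.

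Within 1000 bp of a TSS, 12765 of 20090 protein-coding genes had a peak in both lists, 332 with V. cholerae MVs only and 143 with E. coli MVs only. All such peaks of a gene were added up. The median gene had a normalized tag count of 471.1 with V. cholerae MVs and 434.1 with E. coli MVs, and the median log2 ratio was 0.12, with quartiles of −0.040 and 0.29. Per 1000 bp it was 0.10. By counting error alone 4769 genes lay above 0 and 1201 below. At least 1.5-fold, 805 genes (6.31%) were higher with V. cholerae MVs and 114 (0.893%) lower. The genes called higher were weaker than most, with a median mean level of 86.35 against 454.6 for all genes, and the genes called lower had 39.7. Their median GC content was 63.9% and 45.1%, against 54.1% for all genes. In the highest of 5 equal groups of genes by GC content, 533 were called higher and 13 lower, and in the lowest group 16 and 68.

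At strong genes most of the largest ratios depended on which peaks were counted, because peaks ran together in 1 list or because a peak of 1 list ended outside the 1000 bp window. EML3, a microtubule-associated protein, is of the second kind, since its region with MTA2 had 705.5 in 3451 bp and 631.6 in 3331 bp. NDUFB10, a subunit of complex I, had 1303.4 with V. cholerae MVs and 252.7 with E. coli MVs, because a V. cholerae MV peak of 7842 bp also covered RNF151 and RPS2, where the E. coli MV list had a separate peak. With all peaks of the joined region, the values were 1303.4 and 1199.7, a log2 ratio of 0.12 in place of 2.37. S100A14, an epithelial calcium-binding protein, had 1086.7 and 233.7 in its own peaks and 1086.7 and 866.3 with those of S100A16. The reverse held at RBM15B, an RNA-binding protein, with 336.6 and 1135.0 at its TSS but 1161.2 and 1135.0 over the region it shares with MANF. Of the 12 highest and 12 lowest genes in the upper 50% of mean level, 23 of 24 were no longer called over joined regions. TNRC6B was the exception. Values over joined regions, chosen after seeing the data, gave 767 genes called higher and 94 lower. Of the genes called before, 754 and 92 remained called in the same direction.

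Over joined regions, the genes with the largest ratios towards V. cholerae MVs were weak, below the median gene in both libraries. RGCC, a regulator of cell cycle progression, had 93.8 with V. cholerae MVs and 16.1 with E. coli MVs, giving a log2 ratio of 2.54 (1.80 to 3.36). COL9A3, a collagen chain of cartilage, had 99.1 and 9.5, and GALNT9, an enzyme that starts O-glycosylation, had 125.3 and 15.2. Mock-treated cells had 20.2 at RGCC, 23.1 at GALNT9 and no called peak at COL9A3. TRIM29, an epithelial ubiquitin ligase, had 96.1 and 26.6, a ratio of 1.85 that is 0.89 when only overlapping peaks are counted, and GAL3ST1, a sulfotransferase of glycolipids, had 165.2 and 52.2, a log2 ratio of 1.66 (1.23 to 2.12). Both lacked a mock peak. GABARAPL1, a member of the ATG8 family of autophagy, had 169.8 and 62.7, a log2 ratio of 1.44 (1.04 to 1.86), with a peak of 1895 bp against 854 bp and 75.1 in mock-treated cells. Per 1000 bp its ratio was 0.29, so most of its difference lay in width.

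Among strong genes higher with V. cholerae MVs the joined ratios were small. CRIP1 and TEDC1, which share 1 region, had 640.2 with V. cholerae MVs and 395.1 with E. coli MVs, giving a log2 ratio of 0.70 (0.52 to 0.87). BBC3, the p53 target PUMA that promotes apoptosis, had 570.2 and 360.9, a ratio of 0.66 (0.48 to 0.84). PIM3, a serine/threonine kinase, had 992.9 and 650.6, and HES4, a transcriptional repressor of the hairy family, had 641.7 and 419.8, both with 0.61. The GC content at these genes was 63.5% to 72.1%, and within GC bins none was called, with 0.23 at CRIP1, 0.29 at BBC3 and 0.14 at PIM3 and HES4.

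The genes lower with V. cholerae MVs over joined regions were led by PSD3, an ARF6 exchange factor on chromosome 8 (18867503 to 18872052, hg19). Its region had 16.9 in 770 bp with V. cholerae MVs and 515.8 in 4549 bp with E. coli MVs, giving a log2 ratio of −4.93 (−5.62 to −4.32), and 294.4 in mock-treated cells. Its GC content was 48.0%. SCEL, the epithelial protein sciellin, had 35.4 and 114.0, a ratio of −1.69 (−2.21 to −1.19), and 127.0 in mock-treated cells. ANXA1, the anti-inflammatory annexin whose window is printed above, had 60.7 and 172.9, a ratio of −1.51 (−1.91 to −1.12), and 199.2 in mock-treated cells. The GC content was 41.1% at SCEL and 35.2% at ANXA1, and within GC bins their ratios were −1.46 and −1.28. Mock values are not on the same scale, since 38.6% of the mock tags lay in peaks against 56.1% and 53.9%.

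TNRC6B, a GW182 protein of microRNA silencing, had 392.0 with V. cholerae MVs, 1016.3 with E. coli MVs and 1001.8 in mock-treated cells. Its upstream TSS, the weaker one with E. coli MVs, had 392.0 and 390.4, a log2 ratio of 0.0059. The rest lay at the internal TSS printed above, where the E. coli MV list had a peak of 625.9 and the mock list one of 739.1, and the V. cholerae MV list had none. The header of each list states how many putative peaks were removed against input, 588 with V. cholerae MVs and 572 with E. coli MVs, but not which, so an unlisted peak does not show that tags were missing. RNF43, a Wnt-limiting ubiquitin ligase of stem cells, had 928.3 and 1368.7, a ratio of −0.56 (−0.67 to −0.45). CTNND1, the p120 catenin of adherens junctions, had 836.1 and 1181.5, a ratio of −0.50 (−0.62 to −0.38). MACC1, a regulator of MET expression in colon cancer, had 174.5 and 329.6, a ratio of −0.92 (−1.17 to −0.67). RNF43, CTNND1 and MACC1 had a GC content of 40.3%, 42.2% and 37.6%, and centred within GC bins their ratios were −0.33, −0.27 and −0.69.

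Among the genes that encode immediate early transcription factors and regulators, which signalling induces without new protein synthesis, 28 of 29 had a peak in both lists and all 28 had a ratio above 0, as had 69.0% of all genes. Their median log2 ratio was 0.30, against 0.12 for all genes, and 3 were called higher and 0 lower, where 6.31% and 0.893% of all genes were. EGR3, a zinc finger factor, had 292.0 and 176.7, a ratio of 0.72 (0.47 to 0.99), and KLF2 had 208.3 and 129.2, a ratio of 0.69 (0.39 to 1.00). ZFP36, which destabilises cytokine mRNA, had 1190.5 and 720.9, but 1190.5 and 939.4 over its joined region, which also holds PLEKHG2. JUN had 674.8 and 478.7, a ratio of 0.50 (0.34 to 0.66), and its partner FOS had 624.8 and 474.0, a ratio of 0.40 (0.24 to 0.56). KLF6 had the lowest ratio, 0.023 (−0.11 to 0.15). The list's median GC content was 60.5%, and centred within GC bins its median was 0.079, with 0.36 for EGR3 and 0.22 for KLF2. Of 41 genes of any list called higher, 10 were also called within GC bins, and of 9 called lower, 6 were. Of 18 genes of MAPK feedback, 17 had a peak in both lists, with a median of 0.20, 2 called higher and 0 lower. These were the phosphatase gene DUSP8, with 231.3 and 133, and the receptor inhibitor gene LRIG1, with 53.8 and 29.4. Over joined regions DUSP8 had 231.3 and 164.3, a ratio of 0.49, and was not called.

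All 30 NF-kB subunits, inhibitors and targets had a peak in both lists, with a median log2 ratio of 0.16, 2 called higher and 0 lower, a share close to the 6.31% of all genes called higher. The lymphotoxin beta gene LTB stood at 115.3 against 64.6 in peaks of 1681 and 1030 bp, with 0.13 per 1000 bp, and TNIP2, an inhibitor of NF-kB, had 328.2 and 201.4, a ratio of 0.70 (0.46 to 0.95). Within GC bins they had 0.51 and 0.29. BIRC3, an inhibitor of apoptosis, had 177.5 and 230.8, a ratio of −0.38 (−0.64 to −0.11). MAP3K14, the kinase NIK, had 479.6 and 460.7 and lay within counting error.

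Of 33 cytokine and chemokine genes, 20 had a peak in both lists, 2 with V. cholerae MVs only and 3 with E. coli MVs only. The median was 0.12, with 4 called higher and 3 lower, where 6.31% and 0.893% of all genes were. IL32 had 50 with V. cholerae MVs and 26.6 with E. coli MVs, CSF2 had 66.9 and 36.1 but −0.35 per 1000 bp, and CXCL1, a neutrophil chemokine, had 118.4 and 73.1. Its neighbour CXCL8, which also draws neutrophils, went the other way with 41.5 and 76.0, a ratio of −0.87 (−1.40 to −0.36), and had 83.7 in mock-treated cells. IL33, an alarmin released by damaged epithelium, had 8.45 and 37.9, a ratio of −2.17 (−3.28 to −1.18) that is −0.17 when only overlapping peaks are counted, and IL18 had 99.9 and 162.4, a ratio of −0.70 (−1.04 to −0.36). CCL20, CXCL11 and IL1A had weak peaks with E. coli MVs only, from 9.5 to 15.2, and IL11 and CSF3 with V. cholerae MVs only, at 13.1 and 9.99. CXCL1 had a GC content of 56.9% and CXCL8 and IL33 one of 35.8% and 37.6%. Within GC bins CXCL8 and IL33 had −0.65 and −1.94.

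Receptors, adaptors and effectors that respond to bacterial products were measured at 23 of 36 genes, with a median of 0.16, 2 called higher and 1 lower. Among all genes, the shares called higher and lower were 6.31% and 0.893%. GSDMD, the pore-forming gasdermin of pyroptosis, had 428.8 and 283.0, a log2 ratio of 0.60 (0.39 to 0.81), and 0.23 within GC bins. NOD2, a sensor of muramyl dipeptide, was called higher on few tags, with 25.4 and 9.5. TLR3, a sensor of double-stranded RNA, had 195.2 and 311.5, a ratio of −0.67 (−0.92 to −0.43), and CASP4, the sensor of cytosolic lipopolysaccharide, had 230.6 and 309.6, a ratio of −0.43 (−0.66 to −0.19). The 2 genes with lower values have a GC content of 40.2% and 42.2%, and GSDMD 64.3%. Within GC bins TLR3 and CASP4 had −0.45 and −0.20. Of 38 interferon response genes, 33 had a peak in both lists, with a median of 0.20, 5 called higher and 0 lower. SOCS1 had 419.6 and 250.8, SOCS3 212.9 and 128.2, and CISH 465.0 and 298.2, all feedback inhibitors of cytokine receptors. IRF7 and the exonuclease gene ISG20 were the other two, with ratios of 0.69 and 0.78. Within GC bins none of these 5 was called, with values from 0.26 at SOCS3 to 0.55 at ISG20. The RNA-binding effectors IFIT1 and IFIT2 had −0.40 and −0.42.

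Genes of intestinal differentiation had a peak in both lists at 30 of 42 members, with a median log2 ratio of 0.15, 4 called higher and 1 lower. Over all genes, 6.31% were called higher and 0.893% lower. SPDEF, a goblet cell factor, had 43.8 with V. cholerae MVs, 10.4 with E. coli MVs and no called mock peak, a ratio of 2.07 (1.12 to 3.15). EHF, an epithelial ETS factor, had 49.2 and 196.5 in the peaks near its start sites, where the ratio per 1000 bp was 0.030. Counted over joined regions it had 131.5 and 196.5, a ratio of −0.58 (−0.88 to −0.28). The call of EHF therefore depended on which peaks were counted. KLF5, a crypt factor, had 2158.8 and 2655.7, a ratio of −0.30 (−0.37 to −0.22), and 2676.2 in mock-treated cells. Of 34 junction and polarity genes, 32 had a peak in both lists, with a median of 0.17 and 2 called higher. The share called higher was close to that of all genes. CLDN3, a sealing claudin, had 184.4 and 105.4, a ratio of 0.81 (0.48 to 1.14) that was 0.40 within GC bins, and CLDN1 had 27.7 and 15.2, within counting error.

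The differentiation genes that the study measured by realtime PCR were chosen there on samples of this experiment, so they are described only by their values. SKIL, an antagonist of SMAD signalling, had the highest log2 ratio of these 7, 0.86 (0.55 to 1.17), from 222.1 and 122.5. Its peak was 2648 bp wide with V. cholerae MVs and 2293 bp with E. coli MVs, and per 1000 bp the ratio was 0.65. Centred on genes of like GC content it was 0.45. KRT80, an epithelial keratin, had 113.0 and 154.85, a ratio of −0.45 (−0.79 to −0.12). Its peaks covered 1491 and 2288 bp, and per 1000 bp the ratio was 0.16, but within GC bins it was −0.72. CDKN1B, which encodes the kinase inhibitor p27, had a ratio of −0.19 (−0.27 to −0.12) in peaks of 15062 and 15421 bp, and −0.16 per 1000 bp. TJP1 had −0.13 (−0.28 to 0.028). Of the 7 genes, 4 lay above 0 and 3 below.

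RND3 and SOCS2 were among the genes named by the study for RNA that moved in opposite directions under the 2 kinds of MVs. RND3, an atypical small GTPase, had 1070.5 with V. cholerae MVs and 1244.2 with E. coli MVs, giving a log2 ratio of −0.22 (−0.33 to −0.11), in 8911 and 11294 bp. Per 1000 bp its ratio was 0.12. SOCS2, an inhibitor of growth hormone signalling, had 1310.3 and 1230.0, within counting error at 0.091 (−0.014 to 0.20). Neither was called at 1.5-fold.

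The Wnt target and crypt stem cell list had a median of 0.25 over 23 genes, with 2 called higher and 0 lower. For all genes the shares called were 6.31% higher and 0.893% lower. NKD1, a feedback inhibitor of Wnt signalling, had 358.9 and 207.1, a ratio of 0.79 (0.56 to 1.03). SP5, a direct Wnt target, had 315.1 and 209.0. Within GC bins they had 0.38 and 0.18, and the list median was 0.0070. The nuclear receptor and retinoic acid list had 0.24 over 24 genes, with 2 called higher, CYP24A1 and CYP26A1. These encode the enzymes that degrade vitamin D and retinoic acid, and had 46.1 against 20.9 and 88.4 against 55. Neither direction held throughout, since CYP24A1 had −0.012 with a window of 2500 bp and CYP26A1 had −0.068 per 1000 bp. The vitamin D receptor gene VDR itself had 0.27 (0.11 to 0.43). ID4, a BMP-responsive inhibitor of differentiation, had a peak within 1000 bp of its TSS with V. cholerae MVs only, but over the joined region the values were 89.9 and 88.3, so the lists differed there in where the peak lay. The TGF-beta and BMP list had a median of 0.099 over 27 genes.

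Of 27 cell cycle regulators, all had a peak in both lists, with a median of 0.17. CDKN1C, the kinase inhibitor p57, had 212.1 and 110.2, a log2 ratio of 0.94 (0.63 to 1.27), and 0.47 within GC bins. CCND2, which encodes cyclin D2, was called higher at 43.1 and 12.3, but the counted peaks of the lists did not overlap, and over joined regions it had 43.1 and 24.6. The genes of cAMP signalling and ion transport, the pathway that cholera toxin acts on, had a median of 0.22 over 33 genes with 1 called higher and 1 lower. Set beside this, 6.31% of all genes were called higher and 0.893% lower. KCNN4, a calcium-activated potassium channel of colonocytes, had 79.95 and 45.6, a ratio of 0.81 (0.30 to 1.33) that was 0.55 within GC bins, and the phosphodiesterase gene PDE4B had 24.6 and 38.9, within counting error. GUCY2C, the receptor of heat-stable enterotoxin, had a weak peak of 9.99 with V. cholerae MVs only. The p53 targets had 0.12 over 21 genes, oxidative stress genes 0.087 over 20 and unfolded protein and heat shock genes 0.075 over 28, and of these lists only BBC3 passed 1.5-fold.

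Housekeeping lists lay below the median of all genes. Cytosolic ribosomal protein genes had a median log2 ratio of −0.071 over 79 genes, DNA replication genes −0.062 over 42, and respiratory chain subunits and replication-dependent histones −0.051 over 76 and −0.052 over 50. The DNA replication genes and histones had 0 called in either direction, where 6.31% of all genes were called higher and 0.893% lower. RPL17, a protein of the large ribosomal subunit, and NDUFB10 were the called members of the other two, and over joined regions neither was called. MCM3, a subunit of the replicative helicase, had 483.4 and 623.1, a ratio of −0.37 (−0.53 to −0.21). These lists have a median GC content of 47.4% to 50.3%. Within GC bins, the ribosomal protein genes had −0.085, the replication genes −0.082, the respiratory chain −0.033 and the histones 0.041. The H3K4 methylation writers and erasers had 0.16 over 28 genes, with 0 called. HOX genes had 0.16 over 26 genes and zinc finger genes of chromosome 19 had 0.097 over 160.

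Regions called in 1 list only lay mostly away from promoters. Of the 5637 regions with V. cholerae MVs only, 12.8% were at a promoter, and of the 7820 with E. coli MVs only, 6.92%. Their median normalized tag count was 11.5 and 13.3, and the caller's smallest width of 500 bp was the width of 66.4% and 61.3%. Their median GC content was 49.2% and 41.4%. Had they been sequenced as deeply as the E. coli MV library, 36.8% (35.5 to 38.0) of the regions with V. cholerae MVs only would hold fewer tags than its header threshold of 10. The reverse, with the threshold of 11, held for 0.818% (0.631 to 1.04). Both shares follow from which library is deeper and say nothing about the regions themselves. The thresholds are not the floor of the lists, whose weakest peaks held 9 tags with V. cholerae MVs and 8 with E. coli MVs. Within 5000 bp of a peak of the other list lay 36.8% and 31.7%.

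The strongest distal region with V. cholerae MVs only lay in an intron of LRP5, a Wnt co-receptor, with 130.7 in 4017 bp (chr11:68107810-68111827). The mock list had no peak there, and the FAIRE lists, which map nucleosome-free DNA, had peaks of 35.6 with V. cholerae MVs and 88.7 with E. coli MVs. These FAIRE levels are not comparable, since 13.9% and 37.3% of the tags lay in peaks. Promoter regions followed at CAPG and SH2D6 (94.5), LHX9 (93.8) and GALNT9 (89.9), none with a mock peak. The strongest distal region with E. coli MVs only lay in an intron of EREG, a ligand of the EGF receptor, with 150.1 in 3671 bp. Here the mock list had 141.5. The next, at PERP, MPC2 and FHIT, had 134.9, 122.5 and 116.8, and the mock list had 170.3, 127.0 and 75.1. The 5 strongest regions with E. coli MVs only were also called in mock-treated cells, and the 5 strongest with V. cholerae MVs only were not. Over all such regions the shares were much closer, at 20.3% (19.4 to 21.2) and 12.7% (11.9 to 13.6). The central 200 bases of the LRP5 region are shown as the strongest distal example, in GRCh37 on the plus strand (chr11:68109718-68109917), with CG in capitals.
LRP5 intron: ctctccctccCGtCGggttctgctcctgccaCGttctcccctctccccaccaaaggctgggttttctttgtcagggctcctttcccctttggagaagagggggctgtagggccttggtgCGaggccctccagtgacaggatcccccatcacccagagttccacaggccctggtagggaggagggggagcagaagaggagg

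The LRP5 window has a GC content of 63% and 4 CG dinucleotides.

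Shared distal regions with the lowest ratios had few tags with V. cholerae MVs. A region in an intron of UBE2H, a ubiquitin-conjugating enzyme, had 8.45 in 500 bp with V. cholerae MVs and 116.8 in 2993 bp with E. coli MVs, giving a log2 ratio of −3.79 (−4.83 to −2.90), and 66.4 in mock-treated cells. A region within ACSL5, an acyl-CoA synthetase of enterocytes, had 13.1 and 152.0, a ratio of −3.54 (−4.36 to −2.82), and 150.1 in mock-treated cells. A region 8505 bp from the TSS of CXADR, a tight junction receptor, had 11.5 and 88.3, and 86.6 in mock-treated cells. The regions with the smallest width ratios included a stronger one. In an intron of MLLT3, a chromatin reader of the super elongation complex, 203.7 in 5464 bp stood against 922.3 in 13630 bp and 1033.5 in mock-treated cells. This region has a GC content of 33.1%.

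The highest ratios of shared distal regions were found within CAPN5, a calpain protease gene, at 79.9 in 3328 bp against 9.5 in 500 bp, within ARHGEF10L at 76.1 against 10.4 and within EVL at 89.9 against 12.3. EVL is an actin-elongating protein and ARHGEF10L a guanine nucleotide exchange factor. The CAPN5, ARHGEF10L and EVL regions lay 1359, 7568 and 1484 bp from a TSS of the gene. None of these 3 regions had a mock peak, and all had FAIRE peaks with E. coli MVs, from 134.4 to 154.7. In the FAIRE list with V. cholerae MVs, which has a smaller share of tags in peaks, only the CAPN5 region had a peak, of 55.4. A region whose nearest protein-coding TSS was that of SOX9, a transcription factor of crypt cells, at a distance of 297882 bp, had 126.8 against 15.2, a log2 ratio of 3.06 (2.32 to 3.90), and 80.8 in mock-treated cells. This region lay within 1000 bp of an annotated TSS of a gene that is not protein-coding.

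The called groups also differed in the other lists of the series. Of distal regions called higher with V. cholerae MVs, 39.5% overlapped a mock H3K4me3 peak, and of those called lower 61.9%, against 60.5% of those between. At promoters the shares were 60.4%, 65.4% and 94.5%. These promoter groups had median mean levels of 61.55, 30.1 and 408.5, and weak peaks can be missing from the mock list. FAIRE peaks with E. coli MVs overlapped 74.2% of the distal regions called higher and 30.3% of those called lower, and FAIRE peaks with V. cholerae MVs 54.0% and 29.1%. Regions called higher thus lay more often in open chromatin of both treatments than regions called lower. Their median GC content was 54.0% and 41.1%. The parts of level and of base composition in these shares were not tested.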

How the data were processed

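HCT8 cells were treated for 5 h with MVs of V. cholerae C6706 or E. coli MC1061, and H3K4me3 ChIP sequencing gave 1 library each. Reads were aligned to hg19 by the authors, whose deposited lists carry HOMER headers. Versions in the processing notes of the submitters are HOMER 4.7.2, Bowtie 1.1.2 and SAMtools 1.3.1. The methods of the study instead name a later Bowtie, and MACS beside HOMER. The headers of the deposited lists give 4-fold over input and a Poisson p of 0.0001. The deposited normalized tag count is a signal that the authors scaled to 10000000 tags of the library. The deposited fold, the authors' ratio of a peak to input, served only as a stricter filter. The deposited p-values and input tags were not used.

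Whole tags were recovered from the normalized tag counts and total tags, at most 0.0651 from a whole number. Depth was 13011839 tags with V. cholerae MVs and 10528314 with E. coli MVs. Peaks of both lists sharing at least 1 bp were joined into regions. Genes were given all peaks within 1000 bp of a TSS (GENCODE release 44 lifted to GRCh37, which is hg19; protein-coding, autosomes and X), so neighbouring genes can share a peak. Intervals of ratios and shares are exact 95% intervals (Clopper-Pearson). They cover counting error only, and PCR copies are not independent. Intervals of medians come from ranks. Python 3.11.15, pandas 2.3.3, scipy 1.17.1 and pysam 0.24.0 were used, and the procedure was tested on simulated tags.

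The members and the 30 gene lists were chosen with earlier results of these data known. Named genes are those the study names, at most the 2 highest and 2 lowest of each list with at least 50 tags, the 12 highest and 12 lowest genes among the 50% with the highest mean level, and the 8 strongest in 1 list only. Named regions are the 5 most extreme by ratio (distal, at least 100 tags), width ratio and level in 1 list only. Not all of these are printed. FOS, KLF5, CXCL1, IL18, NOD2, CISH, SOCS3, IRF7, KLF2, ID4, the other list members with a peak in 1 list only and the genes over joined regions were named after their values were seen. Alternatives changed the scaling, the peak threshold, the overlap, the window, the start sites and the value of a region or gene. Values of genes over joined regions and the centring within 20 GC bins were decided on after seeing the data. The 2 input libraries and the FAIRE list of mock-treated cells were not analysed here. Some genes, 1 gene list and some sequences are not reported here.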

Additional observations from a re-analysis of the deposited data

How the results depend on the processing

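A single library stands for each treatment, so none can be left out and no spread between cultures is known. No paired analysis was possible because the labels hold 1 H3K4me3 library of each kind. Signs near 0 depend on the scaling, and ratios of weak or neighbouring peaks depend on peak borders.

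The median log2 ratio of shared regions was 0.058, and those of promoters, distal regions and genes were 0.12, −0.14 and 0.12. With library size taken as the tags inside peaks they were −0.000310, 0.065, −0.20 and 0.056, centred on the shared regions 0, 0.066, −0.20 and 0.057, and per 1000 bp 0.022, 0.10, −0.11 and 0.10. The value per 1000 bp of shared regions became −0.037 under either of the first 2. With peaks at least 8-fold over input, shared regions had 0.11, distal regions −0.0098, width 0.0064 and the value per 1000 bp 0.076, and 69 genes were called lower in place of 114. With a normalized tag count of at least 20 these were 0.088, −0.068, 0.0083, 0.061 and 71. Start sites of all genes gave distal regions −0.18. Per 1000 bp 535 genes were called higher in place of 805. Centred within GC bins, promoters had 0.0034, distal regions −0.014, and 271 genes were called higher. There the list medians of NF-kB (−0.0030), oxidative stress (−0.021), nuclear receptor (−0.0071), cell cycle (−0.038), H3K4 writers (−0.017) and HOX genes (−0.046) changed sign. Their intervals before centring left out 0. Of lists whose interval held 0, those of junction (−0.0058), unfolded protein (−0.020) and TGF-beta genes (−0.039) changed sign too. So did the differentiation genes measured by PCR (−0.068) and the histones (0.041).

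Called genes changed sign per 1000 bp at CSF2 (−0.35), EHF (0.030), CLDN1 (−0.036), CYP26A1 (−0.068), CCND2 (−0.34), RPL17 (0.28), RBM15B (0.29), SH3GL1 (0.12), ANO8 (0.24), GCAT (0.51), H2AZ1 (0.079), MIEF2 (0.36), CTDNEP1 (−0.090) and HDAC1 (−0.43). Over joined regions they did at RBM15B (0.033), GCAT (0.15), PTPN6 (0.23), ANO8 (0.33), MED24 (0.15) and MIEF2 (0.29), and with a window of 2500 bp at PTPN6 (0.23), ANO8 (0.33), MED24 (0.15), MIEF2 (0.29) and CYP24A1 (−0.012). PTPN6 had 0.43 with 500 bp. TNRC6B had 0.0059 with 8-fold peaks and with peaks shared between the lists. Of the other values of named genes under an alternative, 1167 stayed within the main value's counting interval and 216 did not.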

Other observations

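The widest regions of H3K4me3, chosen after the data were seen, differed in how close they were between the libraries. The HOXB cluster, which encodes positional transcription factors of the hindgut, carried the widest region, with a normalized tag count of 9836.4 in 80690 bp of peaks with V. cholerae MVs and 9730.9 in 82413 bp with E. coli MVs, giving a log2 ratio of 0.016 (95% counting interval −0.022 to 0.053). GATA6, a factor of gut endoderm, had 2317.1 and 2314.7, and FOXA1, a pioneer factor, had 2592.3 and 2705.1. Regions of low GC content among the widest were lower with V. cholerae MVs. NRIP1, a corepressor of nuclear receptors, had 1842.9 and 2215.9 at a GC content of 39.6%, and a region within VTI1A had 1239.7 and 1770.5 at 34.3%, a log2 ratio of −0.51 (−0.61 to −0.42). In mock-treated cells these 2 regions had 2049.7 and 2046.8. The region at RNF43 had 794.6 and 1194.9 at a GC content of 36.9%, a log2 ratio of −0.59 (−0.71 to −0.47), which is past 1.5-fold.

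Among strong shared regions, MLPH, a melanophilin of secretory cells, had one of the largest width ratios, with 4612 bp against 1966 bp and a normalized tag count of 296.7 against 168.1. ADD3, a membrane skeleton protein, had one of the smallest, with 1666 bp against 4712 bp and 48.4 against 155.8. HOXC12 had a peak of 98.8 with E. coli MVs and none with V. cholerae MVs or in mock-treated cells, and GCNT3, an enzyme of mucin glycosylation, had one of 79.8 with E. coli MVs, none with V. cholerae MVs and one of 34.6 in mock-treated cells.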
